A study of Mus musculus with 54 samples.

Results

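The dopamine receptor gene Drd2 ranged from 1.05 to 41.8 raw CPM (counts scaled to the library's total on genes) among the cortex libraries of this series, and the 12 libraries at the ends of that range are described here. They were chosen by their own Drd2 level. The 18 cortex libraries were ranked by raw CPM of Drd2, with ERCC spike-ins left out of the totals, and the 6 highest were set against the 6 lowest, of 54 libraries from 3 brain regions in all. Because Drd2 counts in these libraries made the groups, every difference between them is given as a description and carries no p-value. Tests were run only on genotype, sex, the contrast between regions, and the striatum and cerebellum libraries of the same mice.

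All mice were 8 weeks old, and cortex, striatum and cerebellum each gave 1 library per mouse. Mbd5+/GT mice carried a heterozygous gene-trap insertion in an intron of Mbd5, a hypomorphic allele on a C57BL/6 background, and WT mice were the comparison group. The mice came from 3 litters. The group with high Drd2 in cortex held 4 WT and 2 Mbd5+/GT mice (2 females, 4 males), the group with low Drd2 held 2 WT and 4 Mbd5+/GT mice (2 females, 4 males), and the 6 libraries between them were all from females. Litter 1 gave 2 high and 0 low libraries, litter 2 gave 3 and 2, and litter 3 gave 1 and 4.

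The striatum is built mainly of inhibitory spiny projection neurons. Those of the indirect pathway carry the D2 receptor, an adenosine receptor and enkephalin, and those of the direct pathway carry the D1 receptor, substance P and dynorphin. Both express a shared set of dopamine signalling proteins such as DARPP-32, and sparse cholinergic interneurons lie among them. The neocortex beside it is dominated by glutamatergic pyramidal neurons, and most of these striatal genes are weak there. In bulk tissue, fewer cells of a type and less RNA per cell cannot be told apart.

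Cortex libraries held between 25295973 and 49027399 counts on genes, with a range of 26329147 to 49027399 in the high group and 25948012 to 33643001 in the low group. Mbd5 itself ranged from 39.6 to 51.7 normalized CPM in Mbd5+/GT cortex and from 47.6 to 74.7 CPM in WT cortex. Among the striatum libraries, those of WT mice M754 and M761 stood apart, with 54.9 and 167.5 CPM of Ppp1r1b against a striatum mean of 1104 ± 717 CPM (SD, n = 18). WT mouse M754 is in the low group and WT mouse M761 in the high group, so the main values that used their striatum libraries are also given without them, a choice made after seeing the data. Unless stated otherwise, CPM values below were normalized by TMM over the cortex and striatum libraries together.

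Drd2 lies on chromosome 9 at 49340627 to 49408177 (GRCm38, GENCODE annotation; the RefSeq start used for its promoter below lies further upstream). In the high group it was 41.7 CPM in WT mouse M752, 39.1 in WT mouse M761, 36 in WT mouse M765, 29.0 in WT mouse M759, 24.6 in Mbd5+/GT mouse M766 and 23.3 in Mbd5+/GT mouse M764. In the low group it was 7.73 CPM in Mbd5+/GT mouse M755, 7.27 in Mbd5+/GT mouse M768, 5.51 in Mbd5+/GT mouse M753, 2.63 in Mbd5+/GT mouse M767, 2.48 in WT mouse M751 and 1.10 in WT mouse M754. Both ends of the range were WT libraries. By the raw values used for the ranking, the last library inside the high group had 22.9 and the next one outside it 15.9 CPM, and at the other border the values were 7.78 inside the low group and 8.70 outside it. The gap at the upper border was thus wider than that at the lower one.

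**Figure D1:**
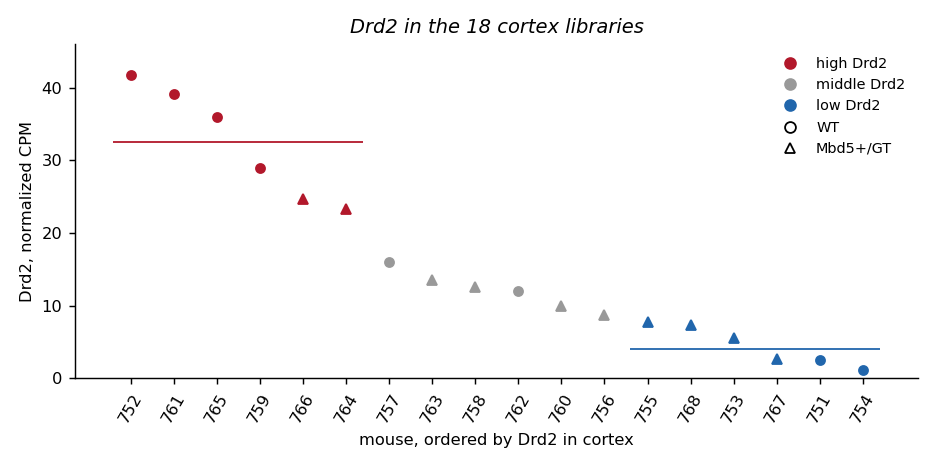
Normalized CPM of Drd2 (vertical axis) in each of the 18 cortex libraries, ordered by mouse from the highest to the lowest raw value; circles are WT, triangles Mbd5+/GT, and horizontal lines are group medians (32.5 CPM high, 4.07 CPM low). The 4 highest and the 2 lowest libraries were from WT mice.

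Across the transcriptome, 227 of 18661 genes tested were higher in every high library than in every low one (1.22%), and 77 were lower in every high library (0.413%). These calls count the absence of overlap between 6 and 6 libraries, and the shares are the background against which the gene groups are read. The median log2 fold change over all genes was −0.01. Leaving aside Drd2, the genes with the greatest differences among those without overlap included Slc18a3, Ptpn7, Adora2a, Sh3rf2, Serpina9, Gpr6, Lrrc10b, Syndig1l, Penk, Ano2, Slc35d3, Cd4 and Ido1, with log2 fold changes between 3.25 and 2.41 among genes averaging at least 1 CPM in cortex.

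Of the indirect pathway genes, 5 were tested in cortex; 3 were higher without overlap, 0 were lower, and their median log2 fold change was 2.45. Adora2a, the adenosine receptor of these neurons, ran from 39.9 CPM (median 73.3) to 88.5 CPM in the high group and from 3.37 CPM (median 7.73) to 21.6 CPM in the low group, a log2 fold change of 2.85 (SE 0.39). Penk, the enkephalin precursor, ran from 189.9 to 589.3 CPM (median 445.4) against 46.5 to 111.2 CPM (median 73.9), a log2 fold change of 2.45 (SE 0.30). The groups did not overlap for either gene, and the library closest to the low group was that of Mbd5+/GT mouse M764 in both cases. Gpr6, an orphan receptor of indirect pathway neurons, ran from 11.2 to 25.3 CPM against 0.70 to 5.25 CPM. The transcription factor gene Sp9 and Gprin3, a regulator of G protein signalling, overlapped between the groups, with log2 fold changes of 0.82 (SE 0.22) and 1.21 (SE 0.31). Ranking the libraries by Adora2a instead of Drd2 kept 5 of the 6 high and 5 of the 6 low libraries.

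Of the 8 direct pathway genes tested, 3 were higher without overlap and 0 were lower. Their median log2 fold change was 1.96, with members from −0.19 to 2.96. Drd1, the D1 receptor, ran from 43.9 to 118.5 CPM (median 99.2) in the high group and from 8.79 to 33.4 CPM (median 17.4) in the low group, a log2 fold change of 2.25 (SE 0.32). Slc35d3, which is needed for D1 receptor trafficking, had a log2 fold change of 2.45 (SE 0.32) and the muscarinic M4 receptor gene Chrm4 one of 0.59 (SE 0.12). Thus markers of both pathways, though not every member of the direct list, stood higher in the libraries picked on a gene of only one of them. Tac1, the substance P precursor, ran from 35.4 to 168.3 CPM against 10.1 to 41.1 CPM, and Pdyn, the dynorphin precursor, from 28.0 to 106.4 CPM against 18.7 to 32.5 CPM. Both overlapped, and for both the overlap was due to 1 high library, that of Mbd5+/GT mouse M764. Isl1, a transcription factor of direct pathway and cholinergic neurons, overlapped through the same library: 5 of the 6 high libraries, at 5.65 to 15.2 CPM, exceeded every low library, and that of Mbd5+/GT mouse M764 had 1.27 CPM.

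The ratio of Drd1 to Drd2 counts is a further description of the groups. It was 1.89 to 3.46 (median 2.96) in the high libraries and 3.42 to 8.00 (median 5.18) in the low ones, against a median of 1.80 in striatum libraries. The groups overlapped only slightly, and the greatest ratio, 8.00, belonged to WT mouse M754, which had the lowest Drd2. Since Drd2 itself chose the groups, low values of Drd2 raise this ratio in the low group in part by the choice. The ratio of Adora2a to Drd2 was 1.71 to 2.33 in the high libraries, 1.59 to 3.07 in the low ones and 2.09 at the striatum median.

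The list of genes shared by both kinds of projection neuron or working in dopamine signalling had 23 members, all tested. Of these 16 were higher without overlap, 0 were lower, and the median log2 fold change was 1.24. Ppp1r1b, which encodes DARPP-32, an inhibitor of protein phosphatase 1 under dopamine control, ran from 301.7 to 486.4 CPM (median 413.4) against 50.8 to 136.6 CPM (median 97.7), a log2 fold change of 2.02 (SE 0.21). Its lowest high library had more than 2 times the level of its highest low library. Rgs9, a regulator that shortens G protein signalling, differed by 2.25 (SE 0.34), the phosphodiesterase Pde10a by 1.76 (SE 0.26), the G protein subunit Gng7 by 1.52 (SE 0.24) and the adenylyl cyclase Adcy5 by 1.24 (SE 0.17) on the log2 scale. These proteins act in G protein and cyclic AMP signalling downstream of dopamine receptors. The nuclear receptor genes Rarb and Rxrg were higher by 1.72 (SE 0.24) and 1.90 (SE 0.32). The 7 members whose groups overlapped were Gnal, Meis2, Arpp19, Foxp1, Bcl11b, Ppp1r16b and Strn, with log2 fold changes between −0.08 and 0.91. The summed level of the list was 4504 to 6947 CPM in the high group, 2632 to 3375 CPM in the low group and 2274 to 22082 CPM in striatum.

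**Figure D2:**
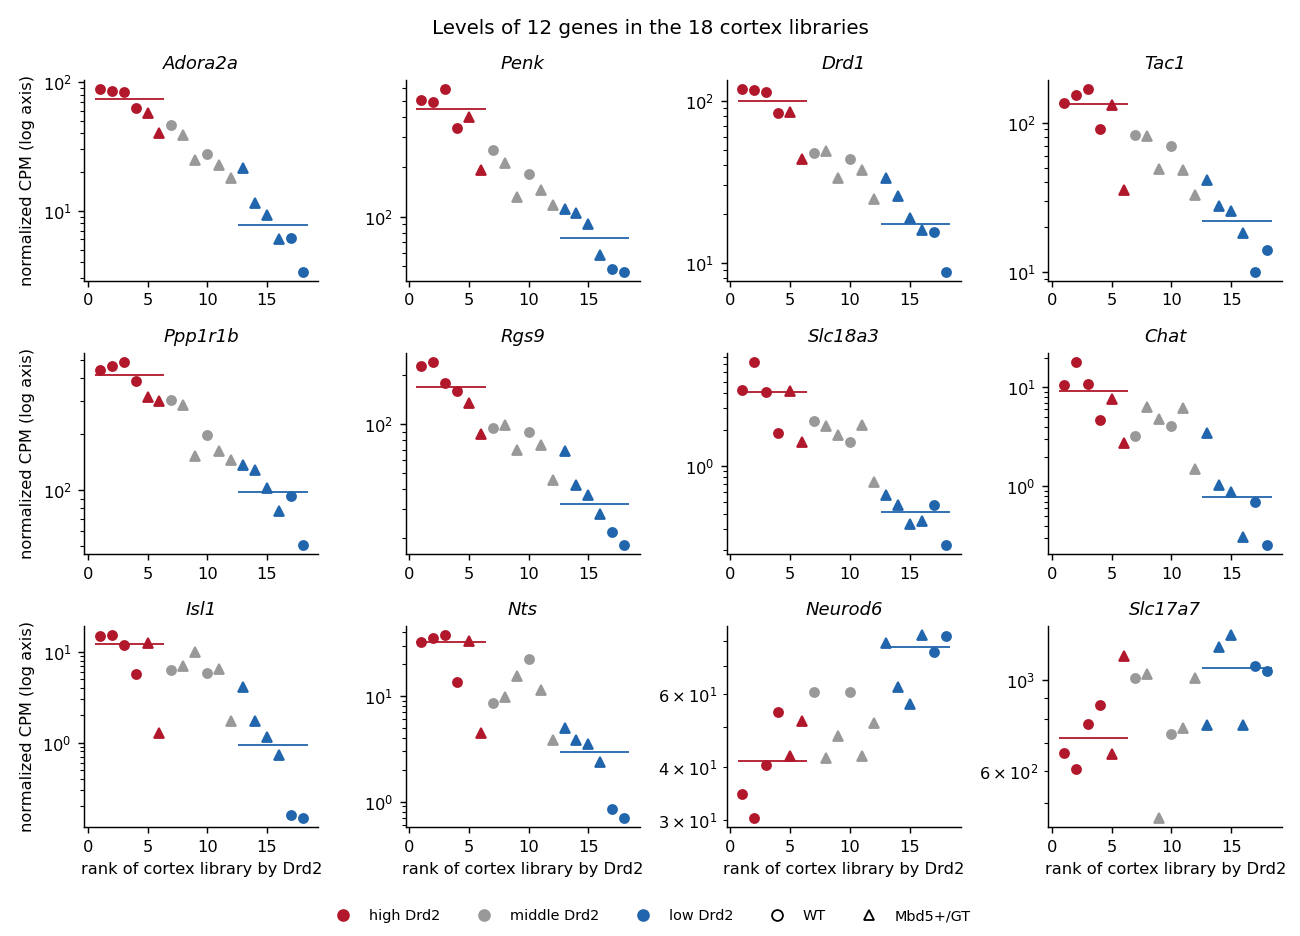
Normalized CPM on log axes for 12 genes in the 18 cortex libraries, ordered by raw Drd2 rank (1 is highest); colours, symbols and median lines are as for Drd2. The high library at rank 6, from Mbd5+/GT mouse M764, lies among the low libraries for Tac1, Isl1 and Nts, and Neurod6 runs the other way from the striatal genes.

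The differences of greatest size were among cholinergic genes. The 6 genes of this list had a median log2 fold change of 3.16, and 2 of them, including Slc18a3, were higher without overlap. Slc18a3, the vesicular acetylcholine transporter gene, ran from 1.58 to 7.26 CPM against 0.22 to 0.57 CPM, a log2 fold change of 3.25 (SE 0.37). Slc18a3 lies within the Chat gene, so reads of the pair may not be fully separated. Chat, the enzyme that makes acetylcholine, ran from 2.78 to 17.99 CPM against 0.26 to 3.48 CPM. Lhx8, a transcription factor of cholinergic neurons, ran from 0.77 to 12.3 CPM against 0.04 to 2.68 CPM. Both overlapped, because Mbd5+/GT mouse M755 was the highest of the low group for both genes and Mbd5+/GT mouse M764 the lowest of the high group.

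Several further genes had large differences between the groups without being higher in the striatum libraries. Nts, the neurotensin precursor, ran from 4.47 to 37.4 CPM in the high group (median 32.7) and from 0.70 to 4.97 CPM in the low group (median 2.94), a log2 fold change of 3.27 (SE 0.59), whereas its striatum level was 11.9 ± 10.6 CPM (SD, n = 18). Between striatum and cortex Nts had a log2 fold change of −0.12 (SE 0.43, adjusted p = 0.827, edgeR's quasi-likelihood test). Drd3, the D3 receptor, known from the islands of Calleja and the ventral striatum, had 1.52 CPM at the median of the high group and 0.07 CPM at that of the low group. It was lower in striatum than in cortex by 1.31 on the log2 scale (SE 0.48, adjusted p = 0.018, edgeR). Drd3 was 5.12 CPM in WT mouse M761 and 3.80 in WT mouse M752, and 0.12 CPM in Mbd5+/GT mouse M764, so the high libraries themselves were uneven. The groups overlapped for Drd3, since Mbd5+/GT mouse M755 of the low group had 1.03 CPM. The other dopamine receptor genes of the list, Drd4 and Drd5, overlapped as well, with log2 fold changes of −0.69 (SE 0.45) and 0.23 (SE 0.26). The CART peptide gene Cartpt and the kappa opioid receptor gene Oprk1 had log2 fold changes of 1.52 (SE 0.34) and 1.15 (SE 0.32), and the 9 peptide and opioid receptor genes had 0 called in either direction and a median of 0.18.

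The high libraries reached different fractions of the striatum level for different genes. On average the high group had 37.0% of the mean striatum level of Drd2, 38.3% of Adora2a, 36.2% of Ppp1r1b and 29.4% of Rxrg. For Drd1 the value was 61.9%, for Tac1 83.3%, for Pdyn 102.4% and for Isl1 111.0%. For Nts it was 218.7% and for Drd3 545.1%, the latter on a striatum mean of 0.40 CPM. Indirect pathway genes thus stood at a median of 45.4% of the striatum level, shared genes at 54.0% and direct pathway genes at 83.3%, against 8.28%, 18.7% and 24.1% in the low group. Without the striatum libraries of WT mice M754 and M761, the high group had 33.3% of the striatum mean for Drd2, 55.8% for Drd1, 253.2% for Nts and 515.9% for Drd3, and the medians of the indirect, shared and direct lists were 41.3%, 49.4% and 79.8%.

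Within the high group, the profile of Mbd5+/GT mouse M764 was the most unlike the others. Its ratio of Nts to Drd2 was 0.19 against 0.47 to 1.35 in the other 5 high libraries, its ratio of Isl1 to Drd2 was 0.05 against 0.19 to 0.51, and its ratio of Drd3 to Drd2 was 0.005 against 0.03 to 0.13. The corresponding striatum medians were 0.10 for Nts, 0.10 for Isl1 and 0.005 for Drd3. These ratios put mouse M764 closest to the striatum median, and the other 5 libraries above it. By the ratio of Adora2a to Drd2 mouse M764 was instead the farthest of the high libraries from the striatum median. That ratio was 1.71 in mouse M764, 2.12 to 2.33 in the other 5 and 2.09 at the striatum median. The striatum library of the same mouse had 14.2 CPM of Slc17a7, the lowest of any striatum library.

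Genes of cortical pyramidal neurons ran in the opposite direction, with smaller differences. Of the 10 genes of the cortical excitatory list, 0 were higher and 1, Neurod6, was lower without overlap, and all 10 had a log2 fold change below 0 (median −0.46). Neurod6, a transcription factor of pyramidal neurons, ran from 30.2 to 54.2 CPM in the high group and from 56.6 to 82.6 CPM in the low group, a log2 fold change of −0.80 (SE 0.14). Slc17a7, the vesicular glutamate transporter of cortical neurons, ran from 604.6 to 1143 CPM against 775.5 to 1281 CPM, which overlapped. The summed level of the 10 genes was 1493 to 2496 CPM in the high group and 2096 to 2835 CPM in the low group, so it overlapped as well. Among all genes lower without overlap and averaging at least 1 CPM, the 10 with the greatest differences were Lgr6, 1110002E22Rik, Hkdc1, Rab37, Gm38299, Adcy1, Nfix, Cemip, Neurod6 and Prickle3, with log2 fold changes between −1.87 and −0.77. Adcy1, the calcium-stimulated adenylyl cyclase of cortex, ran from 406.5 to 862.2 CPM against 920.0 to 1659 CPM.

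Upper layer genes had 0 called in either direction and a median of −0.42. The exception in size was Otof, the calcium sensor gene otoferlin, with 29.1 to 151.7 CPM against 16.8 to 38.9 CPM, although it was lower in striatum than in cortex by 0.83 (SE 0.23, adjusted p = 0.0023, edgeR). Deep layer genes also had 0 called and a median of 0.22. Of the 10 genes of GABA neurons, 2 were higher without overlap: Slc32a1, the vesicular GABA transporter gene, by 0.84 (SE 0.18), and the homeobox gene Dlx6 by 1.33 (SE 0.19). Interneuron genes went both ways and overlapped. Pvalb and Vip were at −0.45 (SE 0.25) and −0.43 (SE 0.14), and Sst, from the peptide list, was at 0.28 (SE 0.12).

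The lists for other tissues that border the striatum or the dissection gave no comparable pattern. Not every neighbouring tissue had a list, and the pallidum had none. Outside the lists, Nkx2-1 and Ngfr had log2 fold changes of 3.39 (SE 0.57) and 2.42 (SE 0.64) between the Drd2 groups, which overlapped. Both were named after their values were seen. The 10 oligodendrocyte genes, all of which were higher in striatum than in cortex (adjusted p under 0.05, edgeR, against 33.3% of all 19782 genes tested), had 0 called between the Drd2 groups and a median log2 fold change of 0.13, and their summed level was 4434 to 7437 CPM against 3360 to 8061 CPM. The 9 ependyma and motile cilium genes tested, all higher in striatum too, had 0 called and a median of 0.24. The median log2 fold changes of these 2 lists between striatum and cortex were 1.18 and 1.51, against 2.13, 0.70 and 1.55 for the indirect, direct and shared lists. Choroid plexus genes, 10 tested with 0 called and a median of 0.50, varied from library to library: the summed level was 34.6 to 977.8 CPM in the high group and 10.8 to 1181 CPM in the low group, with Ttr at 881.8 CPM in Mbd5+/GT mouse M764 and 696.0 CPM in Mbd5+/GT mouse M766 of the high group and at 1073 CPM in Mbd5+/GT mouse M755 of the low group. The lists for septum (median 0.07), thalamus (0.17), hippocampus (−0.75), hypothalamus (0.14, 3 genes tested), claustrum and insula (0.20), dopaminergic neurons (0.04), meninges (−0.13), astrocytes (−0.11), microglia (−0.02), endothelium (−0.11), erythrocytes (−0.03) and immediate early genes (−0.14) had 0 genes called in either direction. No list had a member at 0 in every library of both groups. The part of these tissues in the Drd2 difference was not tested.

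**Figure D3:**
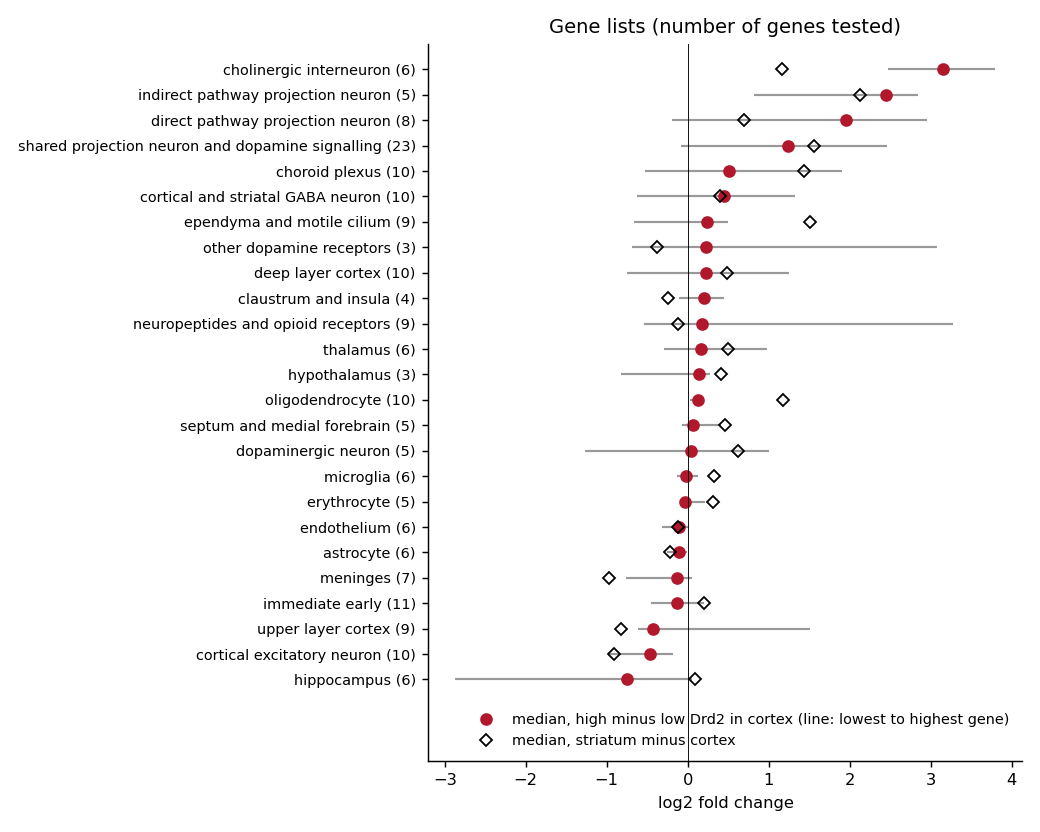
Median log2 fold change (horizontal axis) of each gene list for high minus low Drd2 in cortex (filled circles, with lines from the lowest to the highest gene) and for striatum minus cortex (open diamonds); the number of genes tested is in parentheses. Cholinergic, indirect, direct and shared projection neuron lists have medians between 1.24 and 3.16, whereas oligodendrocyte and ependyma genes, also higher in striatum, lie near 0.

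The genes whose levels followed Drd2 most closely over the 18 cortex libraries were Gpr6 (Pearson r = 0.993 on log2 CPM), Adora2a (0.983), Lrp8os2 (0.973), Ppp1r1b (0.971), Serpina9 (0.969), Rgs9 (0.967), Drd1 (0.967), Rem2 (0.965), Rarb (0.959) and Penk (0.959), among genes averaging at least 1 CPM. These values describe likeness over points that each share 1 library and its depth, and all 10 genes were higher in the high group without overlap. Promoters of Drd2 and 3 of these genes are printed as examples of genes whose levels moved together. Adora2a, Ppp1r1b, Serpina9 and Penk are named only. They are RefSeq sequences of GRCm38 from 250 bases before to 50 bases after the annotated start, and capitals mark GC boxes (GGGCGG), cyclic AMP response elements (TGACGTCA) and TATA boxes (TATAAA) on either strand. Drd2 is read from chr9:49340153-49340452 on the plus strand, Gpr6 from chr10:41072241-41072540, Drd1 from chr13:54055609-54055908 and Rgs9 from chr11:109298132-109298431, these 3 on the minus strand, with the more upstream of 2 starts for Drd1.
Drd2: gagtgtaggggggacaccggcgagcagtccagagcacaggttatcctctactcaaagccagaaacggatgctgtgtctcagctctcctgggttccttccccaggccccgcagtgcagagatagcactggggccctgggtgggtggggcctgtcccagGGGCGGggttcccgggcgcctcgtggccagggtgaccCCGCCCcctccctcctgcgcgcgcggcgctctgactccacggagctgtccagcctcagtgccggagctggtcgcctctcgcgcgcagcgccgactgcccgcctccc
Gpr6: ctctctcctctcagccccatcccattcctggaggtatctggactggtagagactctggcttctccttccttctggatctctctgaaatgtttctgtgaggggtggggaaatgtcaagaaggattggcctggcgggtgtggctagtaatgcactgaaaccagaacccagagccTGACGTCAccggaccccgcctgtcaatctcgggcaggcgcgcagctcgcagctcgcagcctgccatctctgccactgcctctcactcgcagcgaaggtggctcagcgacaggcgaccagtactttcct
Drd1: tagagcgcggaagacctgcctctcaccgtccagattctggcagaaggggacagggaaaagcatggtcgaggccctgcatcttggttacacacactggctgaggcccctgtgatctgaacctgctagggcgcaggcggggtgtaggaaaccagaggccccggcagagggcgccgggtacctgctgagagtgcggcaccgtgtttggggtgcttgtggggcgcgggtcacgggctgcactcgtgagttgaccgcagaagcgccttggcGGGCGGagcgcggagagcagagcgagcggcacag
Rgs9: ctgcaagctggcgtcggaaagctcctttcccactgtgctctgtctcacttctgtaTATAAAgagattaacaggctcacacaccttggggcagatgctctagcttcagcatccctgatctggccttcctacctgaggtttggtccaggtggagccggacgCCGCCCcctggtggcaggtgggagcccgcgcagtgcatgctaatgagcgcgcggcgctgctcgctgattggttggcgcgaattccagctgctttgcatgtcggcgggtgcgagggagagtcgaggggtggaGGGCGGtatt
Of Drd2 and its 10 closest genes, 7 had a promoter in the table. A GC box was found in 4 of the 7 (Drd2, Drd1, Rgs9 and Rem2), against 35.7% of all 32851 promoters, a cyclic AMP response element in 1 (Gpr6), against 1.79%, and a TATA box in 1 (Rgs9), against 13.6%. These matches describe the letters only.

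The contrast between striatum and cortex was fitted on all 36 libraries of these regions, so it shares the cortex libraries with the Drd2 groups. At an adjusted p under 0.05, 33.3% of 19782 genes were higher in striatum and 29.8% lower (quasi-likelihood test of edgeR, Benjamini-Hochberg adjustment). Drd2 was higher in striatum by 2.49 (SE 0.42) on the log2 scale, Adora2a by 2.41 (SE 0.43), Penk by 2.13 (SE 0.35), Ppp1r1b by 2.28 (SE 0.35), Drd1 by 1.64 (SE 0.34) and Chat by 1.32 (SE 0.43). Without the striatum libraries of WT mice M754 and M761 these values were 2.66 (SE 0.36) for Drd2, 2.59 (SE 0.36) for Adora2a, 2.29 (SE 0.31) for Penk, 2.44 (SE 0.28) for Ppp1r1b, 1.82 (SE 0.28) for Drd1 and 1.45 (SE 0.39) for Chat. The striatum and cortex difference was thus slightly larger for each of these 6 genes. With all libraries, 11 genes (0.0556%) were at least 8-fold higher in striatum (16 without those libraries), and 3 of the 11, Gpx6, Gm10706 and E230025N22Rik, passed the cortex filter. Their median log2 fold change between the Drd2 groups was 1.38, with 0 called, at levels of at most 0.99 CPM in cortex. With the bound at 4-fold, 58 genes other than Drd2 were tested in cortex; 22 were higher without overlap, 0 lower, and the median was 1.09. Of the 46 genes at least 4-fold lower in striatum, 0 were called, and the median was −0.46.

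**Figure D4:**
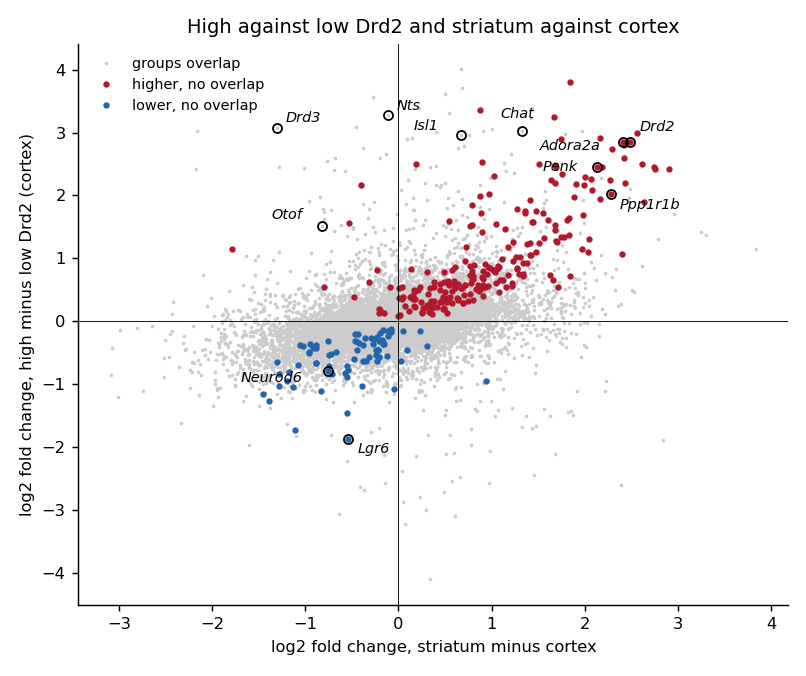
Each point is a gene; the horizontal axis is the log2 fold change of striatum minus cortex and the vertical axis that of high minus low Drd2 within cortex, red and blue points being genes whose groups did not overlap. Drd2, Adora2a, Penk and Ppp1r1b lie far to the right, whereas Nts and Drd3 have high minus low values of 3.27 and 3.08 at −0.12 and −1.31 between the regions.

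The same libraries were also described within genotypes and litters, leaving Drd2 aside because it set the groups. Among WT libraries (4 high, 2 low) the 58 striatum-enriched genes had a median log2 difference of 1.52, with 46 of 58 above 0, and among Mbd5+/GT libraries (2 high, 4 low) one of 1.22, with 52 of 58 above 0. Within litter 2 (3 high, 2 low, all males) the median was 1.29, and within litter 3 (1 high, 4 low) 1.28. The median over all genes was between 0.005 and 0.01 in these 4 subsets. Litter 1 had no low library.

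Genotype and sex did not take part in the choice of libraries and were tested over all 18 cortex libraries. Drd2 was 2.63 to 24.6 CPM (median 9.35) in the 10 Mbd5+/GT libraries and 1.10 to 41.7 CPM (median 22.5) in the 8 WT libraries, which overlapped widely. The mean log2 CPM was lower in Mbd5+/GT by 0.45 (3.26 ± 0.96 against 3.71 ± 1.97, SD), with p = 0.53 by a two-sided exact permutation test over 43758 splits and 0.998 after adjustment over the 2 comparisons. By litter, the difference of Mbd5+/GT minus WT was −1.001 in litter 1, −1.82 in litter 2, which had 1 WT mouse, and 0.13 in litter 3. Females and males had means of 3.46 and 3.46 (p = 0.998, exact permutation test, n = 10 and 8). Litter 1 was all female and litter 2 all male, so this comparison cannot separate sex from litter. Within litter 3 alone, females were lower by 0.50 (p = 0.8, exact permutation test, n = 4 and 3).

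In the fit of genotype across all genes with 4 surrogate variables, which are factors estimated from the counts, 2 of 18661 genes (0.0107%) had an adjusted p under 0.05 (edgeR). They were Mbd5, lower by 0.49 (SE 0.05), and Hs6st2, a heparan sulfate sulfotransferase gene named after its values were seen, lower by 0.26 (SE 0.04). Drd2 had a log2 fold change of −0.35 (SE 0.35, adjusted p = 0.851, edgeR) there and −0.93 (SE 0.55) without surrogate variables. Of the 23 shared projection neuron genes, 15 had an unadjusted p under 0.05 and were lower in Mbd5+/GT, against 4.51% of all genes, but 0 had an adjusted p under 0.05, and their median was −0.32. Without surrogate variables all 23 were below 0, with a median of −0.54. The 58 striatum-enriched genes did not share one direction. With surrogate variables, 12 of the 58 passed the same unadjusted cut with a rise in Mbd5+/GT and 11 with a fall. Their median was −0.31, with 37 below 0. When the surrogate variables were left out, 8 passed with a rise and 8 with a fall, and the median was −0.51, with 38 below 0. Adding the level of the shared projection neuron list as a covariate in place of the surrogate variables turned the estimate for Drd2 to 0.55 (SE 0.16, unadjusted p = 0.003, adjusted p = 0.999, edgeR), with 0 genes called among all tested. That list holds Ppp1r1b, Rgs9 and Rarb, which are among the 10 genes most like Drd2. The estimate thus describes only what the level of the list left over. The 4 surrogate variables took up 84.2% of the variance of Drd2 over the cortex libraries, against a median of 58.5% over all genes and 57.8% over the striatum-enriched genes. In the fit with surrogate variables, 9 of the 10 choroid plexus genes and 8 of the 9 ependyma genes tested had an unadjusted p under 0.05 and were higher in Mbd5+/GT, against 3.96% of all genes, with medians of 1.62 and 0.73 on the log2 scale. Their part in the genotype values of the striatal genes was not tested.

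The striatum and cerebellum libraries of the same 12 mice were compared for the same difference outside cortex. In striatum, Drd2 was 17.5 to 212.3 CPM (median 126.5) in mice with high and 2.78 to 104.8 CPM (median 63.1) in mice with low cortical Drd2. The difference in mean log2 CPM was 1.35 (6.68 ± 1.34 against 5.33 ± 1.93, SD, n = 6 each), with p = 0.201 by a two-sided exact permutation test over 924 splits. The lowest value of each group came from the libraries of WT mice M761 and M754. Without these mice the difference was 1.10 with p = 0.016 by the exact permutation test (252 splits, smallest possible p = 0.0079), but they were left out for low striatal genes, Drd2 among them. Neither set of splits took account of litter, which was unequal between the groups. Over all mice, mean striatal Drd2 was 69.0 CPM in litter 1, 122.8 in litter 2 and 77.3 in litter 3. The part of litter in the difference was not tested. Across all genes in striatum, 0 of 18546 had an adjusted p under 0.05 (0.0%, edgeR), with 2223 at an unadjusted p under 0.05 and 55 called by DESeq2's Wald test. Of 110 striatum-enriched genes other than Drd2, 9 had an unadjusted p under 0.05 and were higher, against 4.91% of all genes, and 0 were lower, against 7.08%. The median log2 fold change of the 110 was 0.80, with 9 below 0, against −0.002 over all genes. Without mice M754 and M761, 37 of the 110 were higher (8.9% of all genes) and 2 lower (8.15%) by the same count. Their median was then 0.67, with 23 below 0. Without mice M754 and M761, 3 genes were called by edgeR: the potassium channel gene Kcna5 and the synaptic vesicle gene Sv2c were higher by 0.78 (SE 0.09) and 0.90 (SE 0.12), and the homeodomain gene Hopx was lower by 0.95 on the log2 scale (SE 0.12). These 3 names were taken after their values were seen.

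In cerebellum, which has few D2 receptor neurons, Drd2 was 0.12 to 2.60 CPM (median 0.33) in the high and 0.22 to 12.7 CPM (median 0.35) in the low group, normalized within that region. The difference in mean log2 CPM was −1.25 (−1.26 ± 1.59 against −0.01 ± 2.57, SD, n = 6 each), with p = 0.303 by a two-sided exact permutation test. The direction was opposite to that of cortex, and the highest values of the low group were those of Mbd5+/GT mouse M755 and WT mouse M754, with 12.7 and 7.33 CPM. Without WT mice M754 and M761 it was −1.21 (p = 0.389, exact permutation test, n = 5 each). Across all genes, 0 of 18160 had an adjusted p under 0.05 (0.0%, edgeR), with 511 at an unadjusted p under 0.05 and 0 called by DESeq2. Of 55 striatum-enriched genes tested in cerebellum, 1 had an unadjusted p under 0.05 and was higher, against 0.815% of all genes, and 2 were lower, against 2.0%. The median log2 fold change of the 55 was −0.64, with 41 below 0, against 0.006 over all genes. Without WT mice M754 and M761, 12 of the 55 were lower (6.01% of all genes) and 1 higher (3.09%) by the same count. Their median was then −0.73. With genotype as a term and all 12 mice, 10 were lower (2.49% of all genes) and 1 higher (1.23%). After adjustment over the striatum and cerebellum tests, both p-values for Drd2 were 0.303.

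**Figure D5:**
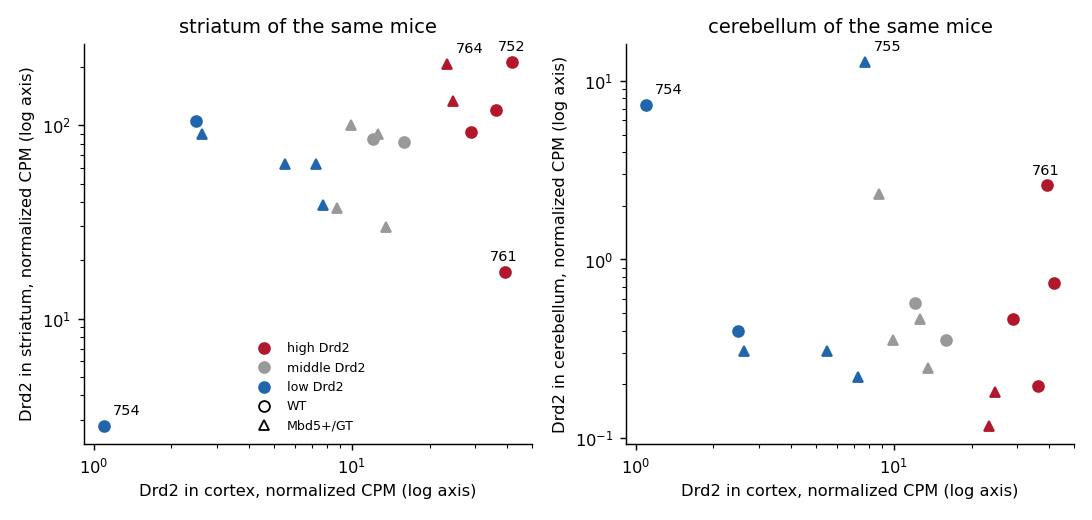
Normalized CPM of Drd2 in cortex (horizontal, log axis) against striatum (left) and cerebellum (right) of the same mouse (vertical, log axes), 1 point per mouse, with colours for the cortical Drd2 group. WT mouse M761 had more Drd2 in its cortex library (39.1 CPM) than in its striatum library (17.5 CPM), and WT mouse M754 was lowest in both.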

How the data were processed

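Whole-number counts of reads per gene, deposited by the authors without normalization, were analysed. Per the labels and the paper, the authors checked reads with FastQC (0.10.1), aligned them with STAR (2.4.2) to GRCm38 and counted them on Ensembl genes. The strand column kept is not given in the sources used here, so overlapping genes are uncertain. Library sizes were summed over 47069 gene rows, without 92 ERCC rows. A GRCm38 annotation named 46488 genes.

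Genes with over 4 counts in at least 8 libraries were fitted with edgeR (4.0.16) after TMM normalization, and p-values were adjusted by Benjamini-Hochberg over all genes tested. A standard error was the log2 fold change over the square root of F. The Drd2 groups gave no test. Striatum and cortex were compared with genotype as a covariate, and genotype in cortex with 4 surrogate variables (sva 3.50.0). DESeq2 (1.42.0) was an alternative. The fits were tested on simulated data. Drd2 was compared on log2 CPM (prior count 0.5).

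The libraries, the 25 gene lists and their 199 genes (198 in the table, all but Gpr52; Ctgf as Ccn2) were chosen with earlier results of these data known. Genes were named from these lists, as the 15 highest and 10 lowest differences without overlap at a mean of at least 1 CPM, as the 10 most like Drd2, or as Mbd5, and some are not reported here. Same-numbered libraries are regions of 1 animal and are paired. The correlation of deviations from genotype means between cortex and striatum of a mouse had a median of 0.10 (−0.52 to 0.63, 18 mice). Among library pairs of a region, the closest differed by a chi-square of at least 8.26 per gene, above counting error. The p-values of tests within 1 region measure the spread between mice. The main fit of striatum against cortex treated its 36 libraries as independent and did not use the pairing. Alternatives covered scaling, filters, DESeq2, covariates, group size and left-out libraries.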

Additional observations from a re-analysis of the deposited data

Results flagged for a closer look

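Of 60 groups of 6 to 10 libraries tested for a sample far from the others, 9 had one, where chance gives about 1 in 20. In cerebellum, Drd2 was 12.7 CPM in Mbd5+/GT mouse M755 and 7.33 CPM in WT mouse M754, each far above the other libraries of its genotype. Among the 6 cortex libraries with low Drd2, Mbd5+/GT mouse M755 was far above the others for 6 genes: Syndig1l at 19.97 CPM, Chat at 3.48 CPM, Lhx8 at 2.68 CPM, Drd3 at 1.03 CPM, the choroid plexus gene Ttr at 1073 CPM and Dsp, a marker of hippocampal granule cells, at 15.6 CPM. The same mouse thus stood out for these genes within the low group, in which it also had the highest Drd2, and in cerebellum for Drd2. Its Chat, Lhx8 and Drd3 levels in cortex lay within the ranges of the high libraries. Cartpt was far above the other low libraries in Mbd5+/GT mouse M768, at 13.8 CPM. The sources of these levels were not tested.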

How the results depend on the processing

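Of 66 alternatives, 50 left the direction and the side of the threshold, or the count within 1.5 times, as given. The counts of genes without overlap depended on the number of libraries: with 5 against 5 there were 639 higher and 541 lower, with 7 against 7 there were 128 and 32, and ranking by Adora2a gave 194 lower. The median of the genes at least 8-fold higher in striatum was 1.93 among WT libraries and 1.14 to 1.75 under the other alternatives that kept this bound, against 1.38, and with the bound at 4-fold it was 1.09. The number of such genes was 11 in the fit given, 29 in WT mice only and 10 in the paired fit, where each mouse was a replicate block. The block was fitted only to this contrast. In cortex, genotype gave 0 calls without surrogate variables (641 at an unadjusted p under 0.05, edgeR) and 0 with the projection neuron level as covariate (649 likewise), 62 with DESeq2 and 7 without a filter. In striatum of the same mice, DESeq2 called 55 genes and edgeR without mice M754 and M761 called 3. The Drd2 difference in striatum without these mice was 1.10 on the log2 scale, past the threshold. The sex difference of Drd2 changed sign to 0.00024 with raw CPM and to 0.27 without the library of highest Drd2, with p = 1.0 and 0.71 (permutation test). The bound of 16-fold left no gene in cortex and was not run. The causes of these changes were not tested. The values of that median within 1 genotype or litter, and all results without mice M754 and M761, were chosen after seeing the data. Without the striatum libraries labelled as repeated the Drd2 difference there was 1.42 (p = 0.27, exact permutation test). Single libraries other than that of highest Drd2 were not left out. Depth limits Drd3, Gbx2 and Slc18a3, which were under 1.1 CPM in every low library. The Drd2 groups rest on 1 gene, libraries within them share litters, and the middle libraries are all from females.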
